A study of Mus musculus with 6 samples.

Results

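The NF-κB transcription factor subunits are the 5 genes *Rela*, *Relb*, *Rel*, *Nfkb1* and *Nfkb2*. They were chosen by gene name among the 54532 genes with deposited counts, each name matched a single gene, and all 5 passed the filter on low counts. RNA-seq was available for 6 samples of MLE12 cells, an immortalized line of mouse alveolar epithelial cells whose strain the labels give as C57BL/6J. In the Ctrl shRNA group, 3 samples received a negative control lentivirus (shCtrl) at a multiplicity of infection of 50. The paper calls this vector empty but lists a sequence for it. In the Idh3α shRNA + Slc25a1 shRNA group (knockdown below), 3 samples received 2 lentiviruses together, each at a multiplicity of infection of 50, that target *Idh3α*, a subunit of mitochondrial isocitrate dehydrogenase, and *Slc25a1*, the mitochondrial citrate carrier. The virus was left on the cells for 16 h, and culture went on for 80 h after the medium was changed. At the stated multiplicities the total lentivirus dose differed between the groups together with the hairpins. Whether the control dose was raised to match is not stated, and the effects of dose and hairpins cannot be told apart. No source used here states that the replicates came from separate cultures, so p-values measure only the spread between these samples.

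NF-κB proteins bind DNA as dimers of Rel family subunits. *Rela* (p65), *Relb* and *Rel* (c-Rel) encode subunits with a transactivation domain, whereas *Nfkb1* and *Nfkb2* encode the precursors p105 and p100, which are processed to the DNA-binding subunits p50 and p52. In the canonical pathway IκB proteins hold dimers such as p65/p50 in the cytoplasm until the IKK complex marks them for degradation, and in the non-canonical pathway the kinase NIK drives processing of p100 and so releases RelB/p52. *Relb*, *Rel*, *Nfkb1* and *Nfkb2* are known as targets of NF-κB itself (autoregulated subunits below), while *Rela* is known as a constitutively expressed gene. In lung epithelium the pathway is known for driving cytokine and chemokine genes.

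The promoters are shown because the comparison contrasts autoregulated subunits with the constitutive one. RefSeq (GRCm38.p6) windows of 250 bases before and 50 bases after a start were matched for *Rela*, *Rel* and *Nfkb2*, and were not matched for *Relb* and *Nfkb1*. Each line reads 5′ to 3′ on the gene's strand, and capitals mark bases that match the κB consensus on either strand, with overlapping matches joined. The *Rel* window is chr11:23770920-23771219, minus strand. The *Rela* window is chr19:5637291-5637590, plus strand. The 2 *Nfkb2* windows printed are chr19:46304487-46304786 and chr19:46305445-46305744, both plus strand.
Rel: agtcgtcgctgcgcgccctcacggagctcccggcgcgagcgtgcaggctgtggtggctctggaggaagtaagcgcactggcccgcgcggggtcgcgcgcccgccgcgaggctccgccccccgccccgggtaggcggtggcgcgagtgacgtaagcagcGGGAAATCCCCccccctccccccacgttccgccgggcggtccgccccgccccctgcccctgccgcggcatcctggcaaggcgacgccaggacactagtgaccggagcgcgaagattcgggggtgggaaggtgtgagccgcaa
Rela: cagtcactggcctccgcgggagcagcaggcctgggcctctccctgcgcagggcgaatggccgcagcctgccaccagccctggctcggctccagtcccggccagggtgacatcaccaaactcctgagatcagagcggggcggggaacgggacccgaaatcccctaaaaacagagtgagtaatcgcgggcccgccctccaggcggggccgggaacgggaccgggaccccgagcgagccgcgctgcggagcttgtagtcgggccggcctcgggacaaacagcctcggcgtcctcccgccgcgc
Nfkb2 upstream start: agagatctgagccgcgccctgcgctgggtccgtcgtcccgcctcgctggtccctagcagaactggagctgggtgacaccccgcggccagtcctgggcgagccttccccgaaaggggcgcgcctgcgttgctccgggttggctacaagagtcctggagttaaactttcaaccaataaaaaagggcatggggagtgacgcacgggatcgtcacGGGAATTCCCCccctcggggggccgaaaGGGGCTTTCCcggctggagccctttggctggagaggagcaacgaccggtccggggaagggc
Nfkb2 downstream start: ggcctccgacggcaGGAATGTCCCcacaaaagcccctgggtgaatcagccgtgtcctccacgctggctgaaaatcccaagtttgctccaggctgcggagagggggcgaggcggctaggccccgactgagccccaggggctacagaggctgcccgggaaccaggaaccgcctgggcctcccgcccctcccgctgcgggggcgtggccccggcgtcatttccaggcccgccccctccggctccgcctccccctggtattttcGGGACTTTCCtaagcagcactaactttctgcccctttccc
The *Rel* window held 1 run of capitals, from -92 to -82 relative to the start. Each of the *Nfkb2* windows held 2 separate runs, at -39 to -29 and -11 to -2 for the upstream start and at -236 to -227 and 10 to 19 for the downstream start. The *Rela* window held 0. Another *Nfkb2* window, chr19:46305680-46305979, held 1 run, which is the downstream one of the window before it. Among all 32851 RefSeq windows of this length, 4.51% held a match and 0.167% held at least 2 separate runs. A match is a string of letters and was not tested as a binding site.

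The depth was similar in all libraries, at 27273502 to 28535653 counts. Ctrl shRNA replicate 2 stood apart from the other 5, with 16681 genes detected against 19902 to 23147 and 6.49% of its counts on mitochondrially encoded genes against 1.57% to 1.80%. Each subunit is therefore given with and without it. The targeted mRNAs were lower in every knockdown sample than in every control. With all 6 samples the log2 fold changes were -0.85 for *Idh3α* (listed as *Idh3a*, adjusted p = 0.254) and -0.62 for *Slc25a1* (adjusted p = 0.104). Without Ctrl shRNA replicate 2, which had the highest *Idh3a*, they were -0.60 and -0.66, and both passed (adjusted p = 0.0142 and 0.00649, edgeR with the Benjamini-Hochberg method for all 4 values).

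Of the 5 subunits, *Nfkb2* and *Relb*, the partners of the non-canonical dimer, showed the largest differences, with means 1.66 times those of the controls for each. *Rela* and *Rel* stood at 1.28 and 1.29 times the control means, and *Nfkb1* at 1.09 times. For all 5 genes every knockdown sample was above every Ctrl shRNA sample, an ordering that 14.7% of the 15307 genes tested also showed. In these bulk samples a difference in the number of cells that express a gene and a difference in RNA per cell cannot be told apart. With all 6 samples, 0 of the 5 had an adjusted p under 0.05 from the quasi-likelihood test of edgeR (Benjamini-Hochberg method over all genes tested, also used for each edgeR p below), in which 0.0588% of genes were called higher. At an unadjusted p under 0.05, 4 of the 5 were below the threshold, *Nfkb1* being the exception, and 7.47% of genes tested were higher at that threshold.

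**Figure D1:**
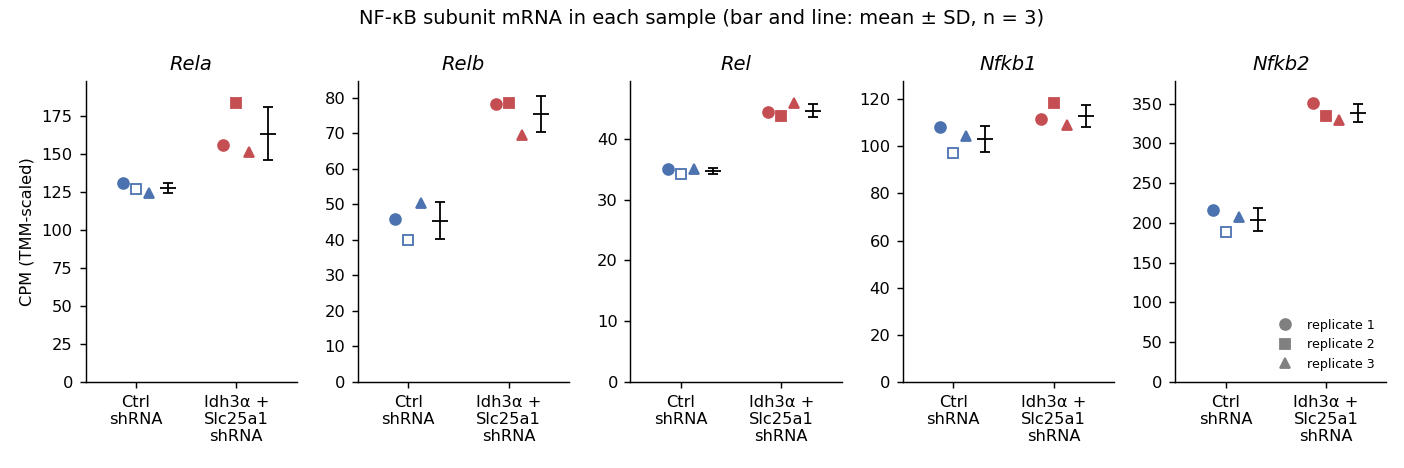
Level of each NF-κB subunit mRNA (y axis, CPM with TMM scaling, from 0) in the 3 Ctrl shRNA and 3 knockdown samples. Symbols mark replicate numbers, the open square is Ctrl shRNA replicate 2, and the bar and line give the mean ± SD. The lowest knockdown sample lies 113 CPM above the highest control for Nfkb2 and 1.06 CPM above it for Nfkb1.

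*Nfkb2* (ENSMUSG00000025225, chr19:46304737-46312090, plus strand of mm10) encodes p100, the precursor of p52. In CPM (counts scaled to the TMM-adjusted library size) it held 217, 188 and 208 in the Ctrl shRNA group and 350, 334 and 329 in the knockdown group, both in replicate order. The groups were far apart relative to their spread, and Ctrl shRNA replicate 2 was the lowest of the controls. The mean was 204 ± 14.6 CPM in the controls and 338 ± 11.0 CPM in the knockdown samples (SD, n = 3 each). The log2 fold change was 0.73 (SE 0.09, edgeR Benjamini-Hochberg adjusted p = 0.104), and the gene ranked 18 of 15307 by p. Without Ctrl shRNA replicate 2 *Nfkb2* rose by a log2 fold change of 0.66 (SE 0.07, edgeR Benjamini-Hochberg adjusted p = 0.00582). *Nfkb2* overlaps *Psd* on the opposite strand by 4 bases in the deposited coordinates, and by 299 exonic bases in GENCODE M21, where its span is longer. *Psd* had a mean of 1641 counts against 7783 for *Nfkb2*, and since no source used here states that the counting used strand, reads in those bases cannot be assigned to either gene.

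*Relb* (ENSMUSG00000002983, chr7:19606217-19629438, minus strand) encodes the subunit that p100 holds in the cytoplasm and that pairs with p52. Ctrl shRNA replicates 1, 2 and 3 held 45.8, 39.9 and 50.4 CPM, and knockdown replicates 1, 2 and 3 held 78.3, 78.4 and 69.6 CPM. Ctrl shRNA replicate 2 was again the lowest control, and the groups did not overlap. The mean was 45.4 ± 5.25 CPM in the controls and 75.4 ± 5.07 CPM in the knockdown samples (SD, n = 3 each). The log2 fold change of 0.73 was close to that of *Nfkb2* (SE 0.11, edgeR Benjamini-Hochberg adjusted p = 0.144, rank 44 of 15307 by p). Without Ctrl shRNA replicate 2 *Relb* rose by a log2 fold change of 0.64 (SE 0.08, edgeR Benjamini-Hochberg adjusted p = 0.0142).

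*Rela* (ENSMUSG00000024927, chr19:5637483-5648130, plus strand) encodes p65, the main transactivating subunit of the canonical dimer. Ctrl shRNA replicates 1, 2 and 3 held 131, 127 and 124 CPM, and knockdown replicates 1, 2 and 3 held 156, 183 and 151 CPM. The controls lay close together, while knockdown replicate 2 was well above the other two. The means were 127 ± 3.28 and 163 ± 17.4 CPM (SD, n = 3 each), a log2 fold change of 0.36 (SE 0.10, edgeR Benjamini-Hochberg adjusted p = 0.288). Without Ctrl shRNA replicate 2 it was 0.35 (edgeR Benjamini-Hochberg adjusted p = 0.108), so that *Rela*, taken here as constitutive, passed the threshold in neither of these fits.

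*Rel* (ENSMUSG00000020275, chr11:23736847-23770970, minus strand) encodes c-Rel, a subunit best known from lymphoid cells. Ctrl shRNA replicates 1, 2 and 3 held 35.0, 34.1 and 35.0 CPM, and knockdown replicates 1, 2 and 3 held 44.3, 43.8 and 45.8 CPM. It had the smallest spread of the 5 subunits, with means of 34.7 ± 0.506 and 44.6 ± 1.06 CPM (SD, n = 3 each). In both groups the SD was a smaller share of the mean than counting error alone, which was 2.71% to 3.85% of the count. The log2 fold change of 0.36 equalled that of *Rela* to 2 decimals (SE 0.07, edgeR Benjamini-Hochberg adjusted p = 0.180, rank 121 by p against 451 for *Rela*). Without Ctrl shRNA replicate 2 it was 0.34 (edgeR Benjamini-Hochberg adjusted p = 0.0615). *Rel* also had the lowest count of the subunits in any library, 674 in Ctrl shRNA replicate 2, for which counting error alone is 3.85% of the count.

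*Nfkb1* (ENSMUSG00000028163, chr3:135584655-135691547, minus strand) encodes p105, the precursor of p50 and itself an IκB-like inhibitor. Ctrl shRNA replicates 1, 2 and 3 held 108, 97.2 and 104 CPM, and knockdown replicates 1, 2 and 3 held 111, 118 and 109 CPM. The groups nearly touched, Ctrl shRNA replicate 1 lying just under knockdown replicate 3. The means were 103 ± 5.55 and 113 ± 4.71 CPM (SD, n = 3 each), and the log2 fold change was 0.13 (SE 0.08, edgeR Benjamini-Hochberg adjusted p = 0.414, rank 5012 of 15307 by p). Without Ctrl shRNA replicate 2 it was 0.08 (edgeR Benjamini-Hochberg adjusted p = 0.552). *Nfkb1* thus differed least of the 5, although it is known, like *Nfkb2*, as a gene that NF-κB induces. A gene model on the same strand, *Gm43430*, lies within its span without sharing exon bases and had a mean of 8.33 counts.

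Which subunits passed depended on the test and on Ctrl shRNA replicate 2, while every fit gave all 5 a positive log2 fold change. Without that replicate, 2 of the 5, *Relb* and *Nfkb2*, were called higher by edgeR, against 1.11% of the 15709 genes tested. With DESeq2 and all 6 samples 3 were called, *Relb* (adjusted p = 7.16e-05), *Rel* (adjusted p = 0.00231) and *Nfkb2* (adjusted p = 2.79e-10, Benjamini-Hochberg). This was against 1.73% of the 15296 genes with a p-value, not all of which had an adjusted p. DESeq2 without Ctrl shRNA replicate 2 called 4, against 3.46% of genes, with *Rela* added at an adjusted p of 0.0134. Limma-voom with sample quality weights, which down-weights libraries that vary more, called the same 4 genes, against 8.67% of genes. Among these were *Rela* at a log2 fold change of 0.34 (adjusted p = 0.0210) and *Rel* at 0.36 (adjusted p = 0.00841 from limma). *Nfkb1* was called by none of the 16 alternatives, its adjusted p running from 0.220 to 0.723 over the edgeR, DESeq2 and limma fits. The adjusted p ran from 2.08e-18 to 0.637 for *Nfkb2*, from 1.19e-08 to 0.675 for *Relb*, from 0.00231 to 0.675 for *Rel* and from 0.0134 to 0.675 for *Rela* over the same fits.

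**Figure D2:**
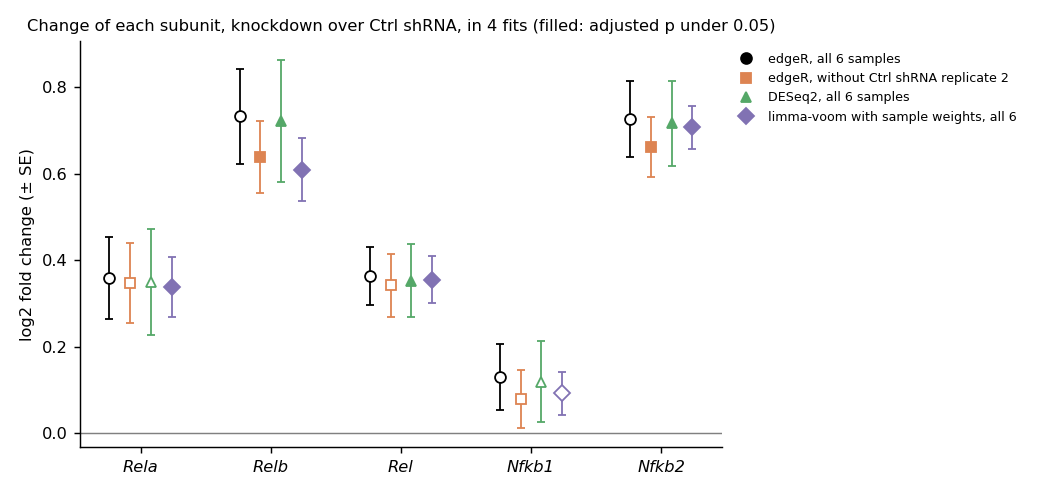
Log2 fold change of each subunit, knockdown over Ctrl shRNA (y axis, ± SE), in 4 fits, filled where the adjusted p is under 0.05. Nfkb2 and Relb lie between 0.61 and 0.73 in all 4 fits and Nfkb1 between 0.08 and 0.13, filled in none.

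To contrast the autoregulated subunits with *Rela*, the count of each was divided by that of *Rela* in the same sample, which removes depth and gene length from the comparison between groups. *Nfkb2* had 1.66, 1.48 and 1.67 counts per count of *Rela* in Ctrl shRNA replicates 1, 2 and 3 and 2.25, 1.82 and 2.18 in the knockdown replicates. The groups did not overlap, and the mean log2 ratio went from 0.68 ± 0.10 to 1.05 ± 0.16 (SD, n = 3 each). For *Relb* the ratio was 0.350, 0.314 and 0.405 in the controls and 0.502, 0.428 and 0.461 in the knockdown samples. These groups did not overlap either, and the mean log2 ratio went from -1.50 ± 0.18 to -1.11 ± 0.12 (SD, n = 3 each). The difference between groups was 0.37 for *Nfkb2* and 0.38 for *Relb* on the log2 scale (two-sided exact permutation test over samples, p = 0.1 for each, the smallest that 3 against 3 samples allow, and 0.133 after Benjamini-Hochberg adjustment over the 4 ratios).

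*Rel* did not separate from *Rela*, with ratios of 0.267, 0.268 and 0.281 in the controls and 0.284, 0.239 and 0.303 in the knockdown samples. The knockdown range enclosed the control range, and the log2 difference of 0.01 was smaller than either SD (0.04 and 0.18, two-sided exact permutation test, p = 0.9, adjusted p = 0.9). *Nfkb1* went the other way, from 0.826, 0.765 and 0.840 counts per count of *Rela* in the controls to 0.715, 0.645 and 0.723 in the knockdown samples. Each knockdown ratio was below each control ratio, and the log2 difference was -0.22 (two-sided exact permutation test, p = 0.1, adjusted p = 0.133). The autoregulated subunits therefore lay on both sides of *Rela* in this contrast. All 4 ratios share *Rela* as the denominator, and knockdown replicate 2, which had the highest *Rela*, was the lowest knockdown sample in each of them. Without Ctrl shRNA replicate 2 the differences were 0.32 for *Nfkb2*, 0.30 for *Relb*, -0.0014 for *Rel* and -0.26 for *Nfkb1*.

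**Figure D3:**
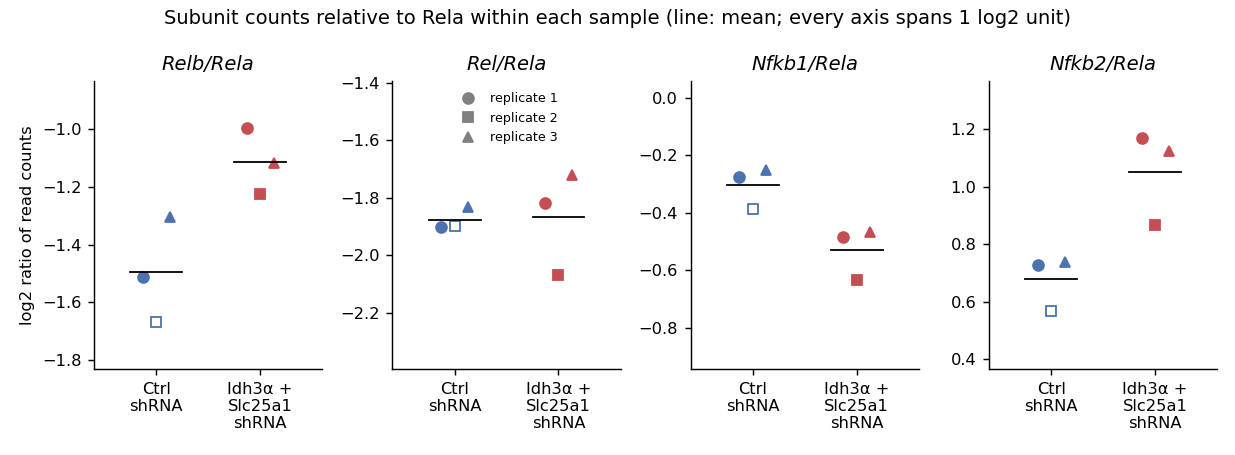
Log2 ratio of each subunit's read count to that of Rela (y axes, each spanning 1 log2 unit) in the 3 Ctrl shRNA and 3 knockdown samples, with lines at the means and an open square for Ctrl shRNA replicate 2. Nfkb2 and Relb lie higher in the knockdown samples by 0.37 and 0.38, Nfkb1 lies lower by 0.22 and Rel overlaps.

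The precursor genes were also set against each other, a ratio chosen after its values were seen and so given without a test. *Nfkb2* had 2.00, 1.94 and 1.99 counts per count of *Nfkb1* in Ctrl shRNA replicates 1, 2 and 3 and 3.14, 2.83 and 3.02 in the knockdown replicates. *Relb* had 0.424, 0.411 and 0.483 counts per count of *Nfkb1* in the controls and 0.703, 0.663 and 0.638 in the knockdown samples. In both ratios the knockdown samples lay above the controls, by 0.60 and 0.61 on the log2 scale.

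Levels of different subunits were compared only per length, as CPM per kilobase of the deposited gene length. On that scale *Nfkb2* was the most abundant, at 62.1 in the controls and 103 in the knockdown samples, followed by *Rela* at 46.9 and 60.2. *Relb* followed at 11.7 and 19.4, then *Nfkb1* at 8.56 and 9.37 and *Rel* at 4.65 and 5.98. The order was the same in all 6 libraries, and neighbours in it differed by at least 1.22-fold in every library. The place of *Nfkb1* rested on its deposited length of 12061 bases, whereas its protein-coding transcript with the longest coding sequence in GENCODE M21 has 4117 bases. For *Relb* the corresponding lengths were 3885 and 2209 bases. With such transcript lengths, an alternative chosen after seeing the data, *Nfkb1* stood at 26.3, 23.6 and 25.4 per kilobase in the controls and 27.1, 28.7 and 26.5 in the knockdown samples. *Relb* on that scale stood at 20.8, 18.1 and 22.8 in the controls and 35.5, 35.5 and 31.5 in the knockdown samples. *Relb* was then below *Nfkb1* in each control and above it in each knockdown sample, a crossing that needs both lengths changed, while *Nfkb2*, *Rela* and *Rel* kept their places.

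The other genes of the pathway were described from 7 lists by role, of which 71 genes were tested. With all 6 samples 4 of the 71 were called higher and 0 lower by edgeR (against 0.0588% of all genes tested called higher), without Ctrl shRNA replicate 2 it was 8 and 0 (against 1.11%), and with DESeq2 11 and 0 (against 1.73%). The median log2 fold change of the 71 was 0.11 with all 6 samples, when that of all genes tested was -0.01, and 0.041 without Ctrl shRNA replicate 2. The IκB family held 3 of the 4 calls with all 6 samples, 5 of the 8 without Ctrl shRNA replicate 2 and 5 of the 11 with DESeq2. It comprises the inhibitors that retain NF-κB dimers and their nuclear relatives. Of its 6 members 3 rose and 0 fell with all 6 samples, 5 rose without Ctrl shRNA replicate 2, and the median log2 fold change was 1.14.

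*Nfkbia*, which encodes IκBα, had 84.6, 85.7 and 79.8 CPM as Ctrl shRNA values and 170, 161 and 150 CPM as knockdown values (log2 fold change 0.94, edgeR Benjamini-Hochberg adjusted p = 0.0273). *Nfkbie*, which encodes IκBε, had 18.9, 15.8 and 17.6 CPM as Ctrl shRNA values and 40.4, 44.7 and 40.4 CPM as knockdown values (log2 fold change 1.26, edgeR Benjamini-Hochberg adjusted p = 0.0249). The lowest knockdown sample had 1.75 times the CPM of the highest control for *Nfkbia* and 2.14 times for *Nfkbie*, against 1.52 times for *Nfkb2*, the largest such ratio among the 5 subunits. *Nfkbiz*, which encodes the nuclear protein IκBζ, rose by a log2 fold change of 2.09 (edgeR Benjamini-Hochberg adjusted p = 0.0249), and *Tnfaip3*, which encodes the NF-κB terminator A20, rose by 1.87 (adjusted p = 0.0116). All 4 are known targets of NF-κB, and each had a larger log2 fold change than *Nfkb2* or *Relb*. These genes had been seen in earlier results of the same samples and are no independent evidence.

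Of 11 IKK and upstream kinases 0 were called by edgeR with all 6 samples and 1 without Ctrl shRNA replicate 2. This was *Ikbke*, an IKK-related kinase, with a log2 fold change of 0.61 (edgeR Benjamini-Hochberg adjusted p = 0.0336). Of 8 receptors tested, 0 and 1 were called in the same 2 fits, the latter *Tnfrsf1b*, which encodes TNF receptor 2, at 0.41 (edgeR Benjamini-Hochberg adjusted p = 0.0403). *Map3k14*, which encodes NIK and was singled out for its role after its values were seen, had 34.5, 29.4 and 30.5 CPM as Ctrl shRNA values and 39.0, 38.6 and 36.6 CPM as knockdown values. Its groups did not overlap, but its log2 fold change of 0.27 did not pass (adjusted p = 0.338, and 0.215 without Ctrl shRNA replicate 2, edgeR). None of the 12 adaptors and ubiquitin ligases, the 10 genes for processing and degradation of p105, p100 and IκB, or the 14 nuclear cofactors passed in either fit with edgeR. Their median log2 fold changes were 0.16, -0.14 and 0.02 with all 6 samples and 0.090, -0.042 and 0.0064 without Ctrl shRNA replicate 2. Of the 10 deubiquitinases and terminators, *Tnfaip3* was the 1 gene called in both fits. DESeq2 with all 6 samples called 2 of the kinases, 1 receptor, 1 adaptor and 2 of the deubiquitinases and terminators. Among them were *Map3k8*, the kinase Tpl2, which p105 binds (DESeq2 Benjamini-Hochberg adjusted p = 0.00858), and *Tnip1*, a partner of A20 (adjusted p = 0.0389), both named after their values were seen.

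**Figure D4:**
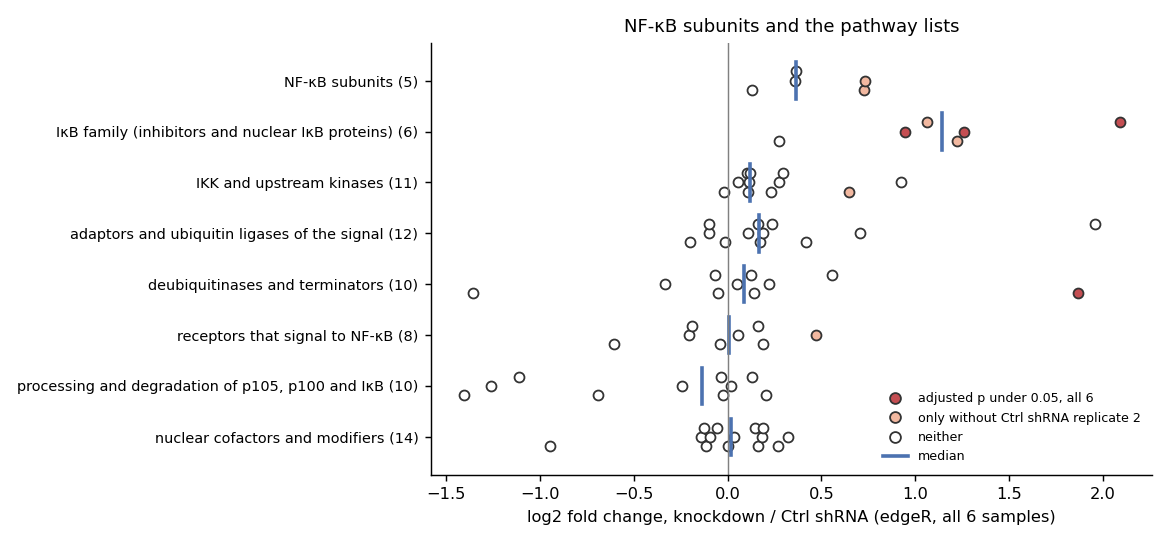
Log2 fold change, knockdown over Ctrl shRNA (x axis, edgeR, all 6 samples), of the 5 NF-κB subunits and of 71 pathway genes in 7 lists, 1 point per gene and a bar at the median. Dark red points have an adjusted p under 0.05 and pale points only without Ctrl shRNA replicate 2. The IκB family has a median of 1.14, and the other 6 lists have medians between -0.14 and 0.16.

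For each subunit the genes with the most similar pattern were found among 9273 tested protein-coding genes of at least 10 CPM, by the root mean square difference of log2 CPM over the 6 samples after centring each gene. For *Nfkb1* these were *Zfand3* (0.012) and *Tmem8* (0.014), and for *Rel* they were *Ppp2r2c* (0.021) and *Dusp8* (0.030). For *Rela* they were *Sh3kbp1* (0.024) and *Sec31a* (0.030), genes that share its high value in knockdown replicate 2. *Nfkb2* was most like *Polr3e* (0.050) and *Mybbp1a* (0.052), and *Relb* was most like *Tlr2* (0.073) and *Nop2* (0.076). No subunit was among the 2 nearest genes of another.

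Because *Rel* and *Relb* are abundant in leukocytes, markers of other cell types were measured beside the subunits. Among 9 leukocyte markers, *Ptprc*, *Adgre1* and *Itgam* were at 0 in all 6 libraries, and the 9 together summed to 1.97 to 2.48 CPM in the controls and 2.60 to 3.26 CPM in the knockdown samples, most of it from *Cd68*. Of 8 alveolar type 2 markers, 5 reached 1 CPM in at least 1 library, namely *Nkx2-1*, *Abca3*, *Sftpc* and, at no more than 2.49 CPM, *Sftpb* and *Napsa*, while *Sftpd* was at 0 in every library and *Sftpa1* at or near 0, so the labelled alveolar cells carried part of that profile. The summed type 2 markers stood at 524 to 533 CPM in the controls and 442 to 473 CPM in the knockdown samples. The 5 epithelial markers summed to 1051 to 1185 CPM and 1184 to 1296 CPM, most of it from *Krt19*. Of these *Cdh1* was higher and *Epcam* lower in each knockdown sample than in each control, while *Krt8*, *Krt18* and *Krt19* overlapped. The leukocyte sums were higher and the type 2 sums lower in each knockdown sample than in each control, while the epithelial ranges met at their ends. The type 2 markers did not move as a group: *Nkx2-1* and *Sftpc* were lower in each knockdown sample than in each control, *Abca3* overlapped, and *Napsa* was higher in each. The 4 fibroblast markers summed to 346 to 1233 CPM in the controls, the highest in Ctrl shRNA replicate 2 through *Dcn*, and to 317 to 344 CPM in the knockdown samples. Of these *Dcn* was lower in each knockdown sample than in each control, *Col1a1* overlapped and *Pdgfra* was higher in each. The 3 endothelial markers summed to at most 0.989 CPM in any library. The part of these shifts in the values of the subunits was not tested.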

How the data were processed

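RNA-seq of 3 Ctrl shRNA and 3 Idh3α shRNA + Slc25a1 shRNA samples was analysed, grouped by the sample titles. The authors deposited whole-number counts per gene without normalization, together with FPKM values and gene lengths. The submitters' processing notes name HISAT2 2.0.5, StringTie 1.3.3b, featureCounts 1.5.0-p3 and mm10, and the use of strand is not given in the sources used here. Of the deposited genes, 53499 have identical positions in GENCODE M21. Per the deposited values, FPKM equals counts per length and per a library size of 0.716 to 1.08 times the total.

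Genes that passed filterByExpr were scaled by TMM and tested with edgeR 4.0.16 (quasi-likelihood, two-sided, R 4.3.3), with Benjamini-Hochberg adjustment over 15307 genes and a threshold of 0.05. DESeq2 1.42.0 and limma 3.58.1 were alternatives, as were other scalings, filters, FPKM, a replicate block and leaving out each library. All replicate pairs differed by more than counting noise. The members and lists were chosen with earlier results of these data known. Named genes were the members, the targeted genes, list genes called with all samples, up to 3 per list called without Ctrl shRNA replicate 2, and the 2 genes most like each member. *Map3k14*, *Map3k8* and *Tnip1* fall outside this rule and were named after their values were seen. Scripts were tested on simulated data. Counting error assumes independent reads. An item among the cell type markers is not reported here.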

Additional observations from a re-analysis of the deposited data

How the results depend on the processing

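All 5 subunits had a positive log2 fold change in all 16 alternatives, and the 16 called 0 subunits lower. Calls beyond the 0 made by edgeR with all 6 samples came from 4 alternatives. DESeq2 called 3 subunits, with log2 fold changes of 0.72 for *Relb*, 0.35 for *Rel* and 0.72 for *Nfkb2*. DESeq2 without Ctrl shRNA replicate 2 called 4, at 0.35 for *Rela*, 0.64 for *Relb*, 0.35 for *Rel* and 0.67 for *Nfkb2*. Limma-voom with sample quality weights also called 4, at 0.34, 0.61, 0.36 and 0.71 in the same order. When each library was left out in turn, edgeR called 0 to 2 subunits, the 2 being those without Ctrl shRNA replicate 2. The log2 fold change then ran from 0.27 to 0.42 for *Rela*, 0.64 to 0.80 for *Relb*, 0.34 to 0.38 for *Rel*, 0.08 to 0.17 for *Nfkb1* and 0.66 to 0.78 for *Nfkb2*. Scaling by library size only moved the median of all genes from -0.01 to 0.16, and relative to it the subunits stood between 0.13 and 0.73.

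The difference in the ratio of *Rel* to *Rela* changed sign as libraries were left out, from -0.065 to 0.11, while those of *Relb* (0.30 to 0.48), *Nfkb2* (0.32 to 0.47) and *Nfkb1* (-0.26 to -0.17) kept theirs.

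List genes called higher numbered 4 with edgeR and all samples, 11 with DESeq2, 11 with DESeq2 without Ctrl shRNA replicate 2, 18 with sample quality weights, 0 with library size only, and 0 to 8 with a library left out (8 without Ctrl shRNA replicate 2, 1 without Ctrl shRNA replicate 1 and 0 otherwise). List genes called lower numbered 0 with edgeR and all samples, 1 with DESeq2 without Ctrl shRNA replicate 2 and 4 with sample quality weights. Over all genes, 9 were higher and 1 lower, against 1144 and 1018 at an unadjusted p under 0.05. The counts were 265 and 192 with DESeq2, 543 and 383 with DESeq2 without Ctrl shRNA replicate 2, 1327 and 971 with sample quality weights, 1 and 0 with library size only, 12 and 3 without a count filter, 6 and 2 with log2(FPKM + 1), 8 and 3 with log2(FPKM + 0.1), and from 0 to 175 and from 0 to 106 with a library left out (175 and 106 without Ctrl shRNA replicate 2). The cause of these changes was not tested.

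Deviations from the group means correlated between same-numbered samples at -0.21, -0.16 and 0.021 for replicates 1, 2 and 3. With 3 samples per group, and Ctrl shRNA replicate 2 apart from the others, these values cannot show or exclude a pairing. With the replicate number as a block, edgeR called 0 subunits, with adjusted p of 0.576 to 0.597, 0 list genes and 0 genes higher and 0 lower over all genes. The biological coefficient of variation was 0.263 with all samples and 0.102 without Ctrl shRNA replicate 2. A ratio with 3 samples against 3 cannot reach an exact p under 0.1. The deposited FPKM gives the same ratio differences by construction.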
